A study of Arabidopsis thaliana with 4 samples.

Results

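GID1A (AT3G05120) and GID1B (AT3G63010), which encode gibberellin receptors of Arabidopsis thaliana, were followed in shoot apices of seedlings carrying an inducible form of the embryo regulator LEC1. Each gene was taken as the probe set that the platform annotation assigns to it alone. They are 2 of 13356 genes that could be read in this way. The pair was chosen because its values were already known to go in opposite directions after dexamethasone, so the levels, differences and ratios of GID1A and GID1B are given as a description, with no test.

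All plants were Ws-0 seedlings aged 8 days that carried 35S:LEC1-GR, a fusion of LEC1 with the glucocorticoid receptor domain driven by the constitutive 35S promoter, so the fusion was not limited to the cells that normally express LEC1. They were kept for 1 h in liquid medium containing sucrose, either with 30 µM dexamethasone (2 arrays, called dex here) or without it (2 arrays, called no dex). Dexamethasone releases the fusion protein into the nucleus. The design had no seedlings lacking the fusion, so an effect of dexamethasone itself and an effect of LEC1-GR cannot be told apart, and the transgene's own transcript was not analysed here.

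Gibberellins are growth hormones that promote germination, elongation and flowering. GID1 proteins are soluble receptors with a fold of the carboxylesterase type. When they bind a bioactive gibberellin they take hold of DELLA proteins, nuclear repressors of growth, which are then tagged by the F-box protein SLY1 and degraded. GID1A and GID1C form one branch of the Arabidopsis receptors and GID1B another, the receptors overlap in function, and GID1 transcripts are themselves lowered by gibberellin signalling in a feedback loop.

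GID1A was lower with dexamethasone. Its RMA expression value on the log2 scale, a background-corrected and normalised summary of the probes of a probe set, was 8.47 and 8.15 in the no dex arrays and 6.92 and 6.64 in the dex arrays. Both dex arrays lay below both no dex arrays, and the groups were separated by a gap of 1.23. The means were 8.31 ± 0.23 without and 6.78 ± 0.20 with dexamethasone (SD, n = 2 per group), a difference of -1.54 ± 0.18 (SE of the fit over all probe sets), or 2.899-fold lower.

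GID1B was higher with dexamethasone. It read 6.83 and 6.53 in the no dex arrays and 8.00 and 7.75 in the dex arrays. Again the groups did not overlap, with a gap of 0.917 between the higher no dex array and the lower dex array. The means were 6.68 ± 0.21 without and 7.87 ± 0.18 with dexamethasone (SD, n = 2 per group), a difference of 1.19 ± 0.17 (SE), or 2.29-fold higher.

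Both genes were among the probe sets called by limma at a Benjamini-Hochberg adjusted p below 0.05. Of all 22746 probe sets tested, 2.37% were called, 1.49% as higher and 0.879% as lower, and 47.2% had arrays that did not overlap between the groups, 22.3% with the dex arrays higher and 24.8% with them lower. As the pair was picked from this comparison, nothing is read from its calls. By size, the fall of GID1A was rank 43 of the falls among 13356 genes, and the rise of GID1B was rank 214 of the rises. The difference of GID1A was larger in absolute value than that of 98.7% of the tested probe sets, and the difference of GID1B larger than that of 97.2%.

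In all 4 arrays the values of both genes lay well above the control level, defined in each array as the highest of 27 probe sets for Bacillus transcripts (4.68 to 4.86). The smallest distance from it was 1.85 for GID1A and 1.66 for GID1B, both in log2 units, so neither difference involved a value near background. The identifiers of both probe sets carry the plain ending that Affymetrix gives to sets designed for a single transcript. Probe sequences were not used here, so possible cross-hybridisation between the receptor transcripts was not tested.

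**Figure D1:**
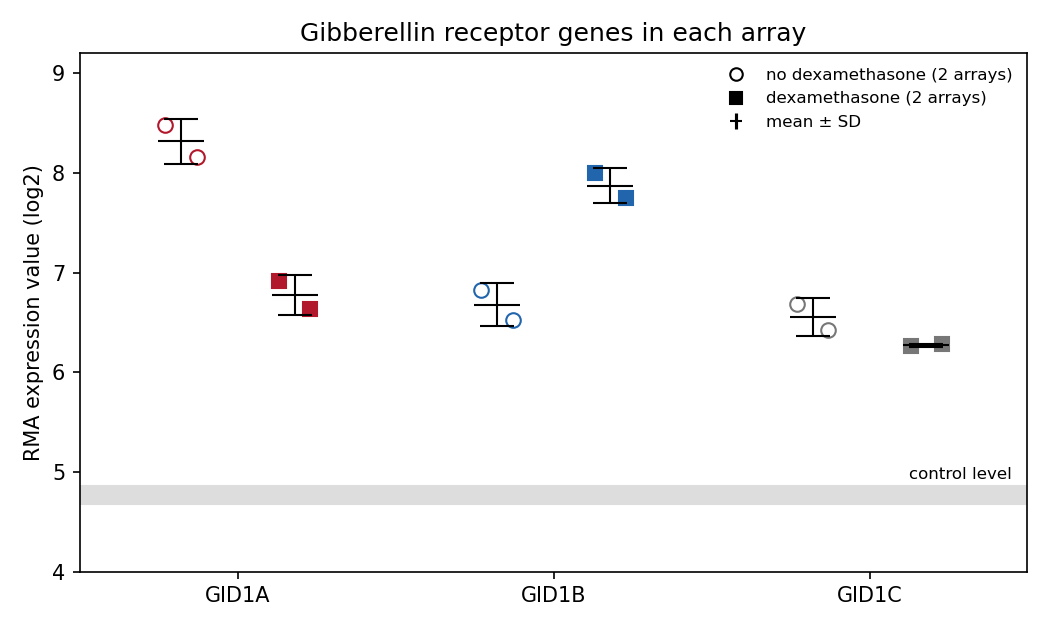
Log2 RMA expression values (y axis) of the gibberellin receptor genes (x axis) in each array, with open circles for the 2 no dex arrays, filled squares for the 2 dex arrays, and a bar for the mean ± SD. GID1A goes from 8.31 to 6.78 and GID1B from 6.68 to 7.87, GID1C from 6.56 to 6.27, and all lie above the grey band of control levels (4.68 to 4.86).

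The ratio of the receptor probe sets, taken within each array, was reversed between the groups. The log2 ratio of GID1B to GID1A was -1.64 and -1.63 in the no dex arrays and 1.08 and 1.11 in the dex arrays. GID1A gave the higher reading in both no dex arrays and GID1B in both dex arrays. Probes differ in how strongly they bind, so the ratio in one array is not a ratio of transcript numbers, and which receptor transcript was the more abundant cannot be said. The probe effect cancels in the change of the ratio between groups, which was 2.73 ± 0.018 (log2, SE from the 4 per-array ratios), a 6.64-fold shift towards GID1B.

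The ratio was steadier than either gene. Its SD within groups was 0.011 without and 0.022 with dexamethasone, against 0.18 to 0.23 for the single genes. This followed from replicate arrays that moved both genes alike. GID1A was 0.32 higher in replicate 1 than in replicate 2 without dexamethasone and 0.28 higher with it, and GID1B was 0.30 and 0.25 higher. Over all tested probe sets, 27.8% were higher in replicate 1 in both groups. The labels do not say whether the same replicate number marks a shared day or batch in both groups. The 2 arrays per group leave the SDs imprecise.

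GID1C (AT5G27320), the third receptor gene and the closer relative of GID1A, was not used in choosing the pair and could be tested. It read 6.69 and 6.42 in the no dex arrays and 6.26 and 6.28 in the dex arrays. The dex arrays lay below the no dex arrays, by a gap of 0.14 that was smaller than the distance of 0.26 between the no dex arrays. Its difference of -0.28 ± 0.15 (SE) did not pass (limma, Benjamini-Hochberg adjusted p = 0.419), which does not show that GID1C was unchanged, and it was -0.15 without no dex replicate 1. Measured against GID1C, the log2 ratio of GID1B moved from 0.12 ± 0.028 to 1.60 ± 0.19 (SD, n = 2 per group), a change of 1.48 ± 0.14 (SE). The log2 ratio of GID1C to GID1A moved from -1.76 ± 0.039 to -0.51 ± 0.21, a change of 1.25 ± 0.15 (SE). These changes add up to that of the ratio of GID1B to GID1A by construction.

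**Figure D2:**
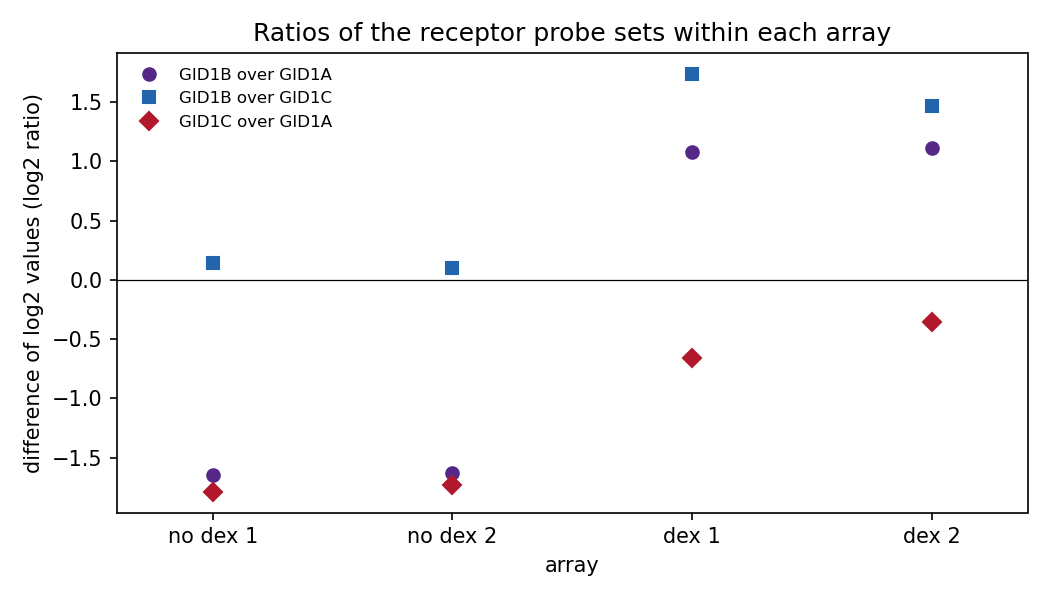
Log2 ratios between the receptor probe sets (y axis) in each of the 4 arrays (x axis). The ratio of GID1B to GID1A lies at -1.64 and -1.63 without dexamethasone and at 1.08 and 1.11 with it, and the ratios to GID1C move by 1.48 and 1.25.

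Neither difference rested on a single array for its direction, which groups that do not overlap fix in advance. Leaving out each array in turn gave differences from -1.70 to -1.38 for GID1A, from 1.04 to 1.35 for GID1B and from -0.42 to -0.15 for GID1C, and a change of the ratio of GID1B to GID1A from 2.71 to 2.75. In limma, GID1A was called in 2 of these 4 settings and GID1B in 1. Neither was called without dex replicate 1 or without dex replicate 2, settings in which no probe set of the table was called, and GID1B was also not called without no dex replicate 2.

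The arrays were checked for the tissue. YAB3, a leaf polarity gene expressed in young organs, read 7.66 to 7.82, and LHCB4.1, a light-harvesting gene of green tissue, read 13.28 to 13.41, while the stem cell gene CLV3 did not exceed the control level in 3 of 4 arrays. Of 7 shoot apex markers 2 were measured. Of 7 root markers 5 were measured. PYK10, a root glucosidase gene, read 11.57 to 12.28 and EXPA18 4.86 to 6.46, both above the control level in every array, EXPA7 read 4.59 to 6.25 and exceeded it in 3, and AGL42 and AGL21 never did. The sum of the 5 log2 values was 29.0 and 32.8 in the no dex arrays and 28.8 and 29.7 in the dex arrays, so no dex replicate 2 stood above the other arrays. Without that array GID1A differed by -1.70 and GID1B by 1.04. Fewer cells of a type and less RNA per cell cannot be told apart in these tissue samples.

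The other measured genes of gibberellin signalling did not pass the test. A gene counts as measured where a probe set was assigned to it alone, which held for 18 of the 70 pathway genes listed besides GID1A and GID1B. None of these 18 was called by limma, beside 2.37% of all probe sets, and 3 had an unadjusted p below 0.05, beside 17.2% of all probe sets. Their median difference was 0.013, beside -0.017 over all probe sets. The arrays of the groups did not overlap for 5 higher and 5 lower genes of the 18, beside 22.3% and 24.8% of all probe sets. Only 14 of the 18 exceeded the control level in any array. With so few genes these counts lie near the shares over all probe sets, so they are not read as a result about the pathway. The 23 listed genes of gibberellin synthesis, inactivation and methylation, whose members set the amount of hormone that GID1 can bind, were not analysed here, nor were the DELLA genes.

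Downstream of the receptors, SLY1, the F-box gene that completes DELLA degradation, read 8.54 and 8.30 in the no dex arrays and 8.45 and 8.33 in the dex arrays. The groups overlapped fully, and its difference was -0.025 ± 0.14 (SE). Its relative SLY2, also called SNEEZY, lay at 4.79 to 5.03, barely above the control level, with a difference of -0.16 ± 0.12.

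SPY and SEC encode sugar transferases that modify DELLA proteins and have opposite effects on them. SPY stood at -0.10 ± 0.19, with overlapping groups. SEC read 9.23 and 8.85 without and 9.54 and 9.47 with dexamethasone, a difference of 0.47 ± 0.17 that did not pass (limma adjusted p = 0.261), and it was 0.28 without no dex replicate 2 and 0.65 without no dex replicate 1. The dex arrays of SEC lay above both no dex arrays.

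Among transporters that can carry gibberellin, NPF3.1 (AT1G68570) read 7.18 and 6.81 without and 6.69 and 5.99 with dexamethasone. Its difference of -0.65 ± 0.28 did not pass (limma adjusted p = 0.329), and it was -0.30 without dex replicate 2 and -1.004 without dex replicate 1. SWEET13 and SWEET14 did not exceed the control level in 3 and in 4 of the arrays, with differences of 0.33 and 0.16.

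Of the DELLA early targets, genes known to be induced when DELLA proteins are stable, 4 of 9 were measured, and the GID1 feedback belongs to the same response. XERICO, a RING protein gene, read 8.65 and 8.64 without and 7.81 and 8.22 with dexamethasone, a difference of -0.63 ± 0.18 (limma adjusted p = 0.161). IQD22, of the IQ-domain family, read 8.30 and 8.03 without and 8.997 and 8.92 with dexamethasone, a difference of 0.80 ± 0.15 (limma adjusted p = 0.071). The groups did not overlap for XERICO, lower with dexamethasone, and for IQD22, higher with it, as for 47.2% of all probe sets. With 4 genes this lies near that share, so it is not read as a result about the targets. The other two, AT5G50915 and AT2G31730, had overlapping groups and differences of 0.41 ± 0.33 and 0.0037 ± 0.21. Without no dex replicate 1 the differences were 0.94 for IQD22 and 0.90 for AT5G50915, and without no dex replicate 2 they were 0.66 and -0.083. AT5G50915 read 5.69 in no dex replicate 1 and 4.70 in no dex replicate 2, the latter below the control level of its array (4.86).

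The GASA peptides are a family named for induction by gibberellin. Of 20 GASA and PRE genes 6 were measured, none was called by limma and none had an unadjusted p below 0.05. AT1G22690, the one with the highest reading, stood at 0.12 ± 0.14, and AT2G14900 at -0.31 ± 0.31. AT5G59845 stood at 0.16 and AT2G18420 at -0.13, with 3 and 4 arrays not above the control level. Only 3 of the 6 genes exceeded that level in any array. Of 32 genes listed for receptors of other hormones only BRL1, of the brassinosteroid receptor family, was measured, and it did not exceed the control level in any array, with a difference of -0.24 ± 0.18 (limma adjusted p = 0.601, unadjusted p = 0.233).

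**Figure D3:**
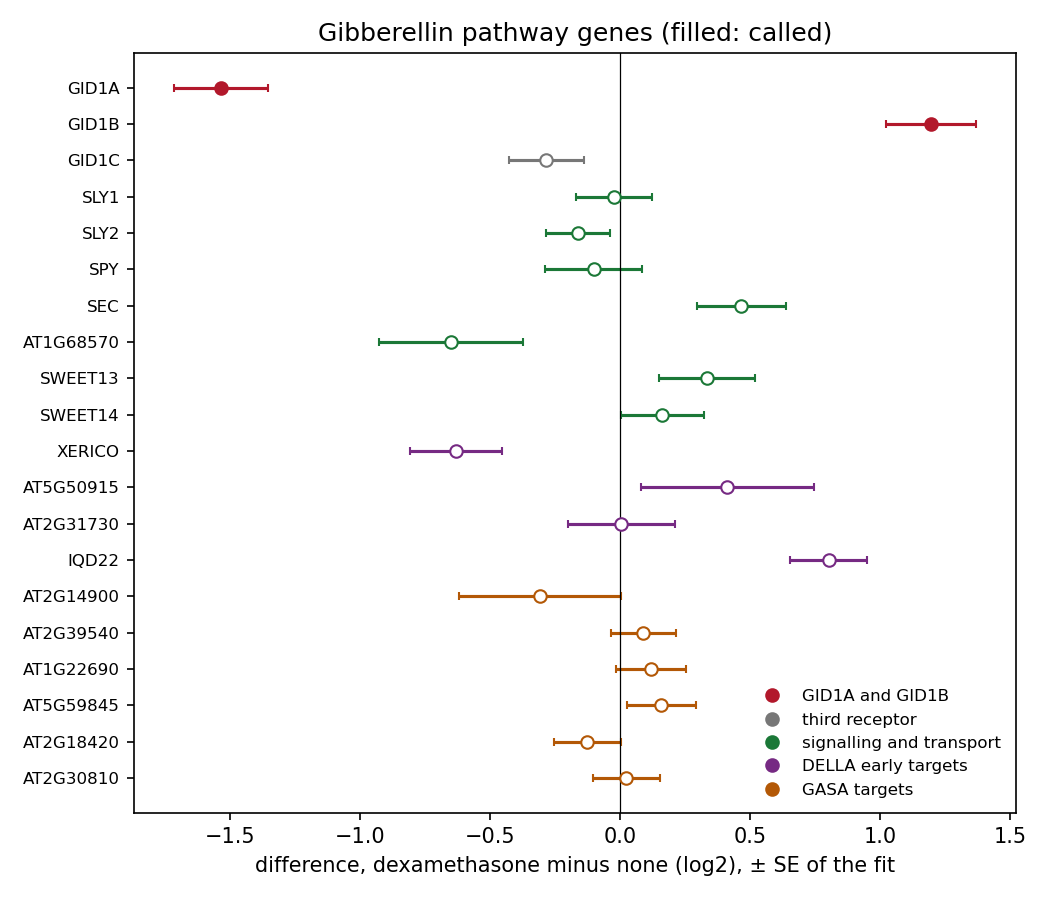
Differences between dex and no dex arrays (x axis, log2, points with the SE of the fit) for GID1A, GID1B and the 18 other measured gibberellin pathway genes (y axis), coloured by role, with filled points for calls. GID1A (-1.54) and GID1B (1.19) are filled, and the other points lie between -0.65 and 0.80 and are open.

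GID1 receptors descend from carboxylesterase-type enzymes, and 12 of 17 listed relatives of that family were measured. Of these, 1 was called as higher and none as lower, beside 1.49% and 0.879% of all probe sets, 3 had an unadjusted p below 0.05 (17.2% of all probe sets), and their median difference was 0.073. The called relative, AT1G68620, read 6.65 and 6.38 without and 8.42 and 8.36 with dexamethasone. Its groups were far apart, and its difference was 1.87 ± 0.15 (limma adjusted p = 0.0228), in the direction of GID1B. Its call was lost without dex replicate 1 and without dex replicate 2 (limma adjusted p = 0.234 and 0.206), at differences of 1.84 and 1.90.

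AT2G03550 lay on the side of GID1A, with 7.80 and 6.91 without and 6.34 and 6.29 with dexamethasone. Its difference of -1.04 ± 0.31 did not pass (limma adjusted p = 0.177). It was -1.49 without no dex replicate 2 and -0.59 without no dex replicate 1. CXE16 stood at 0.37 ± 0.13 (limma adjusted p = 0.24) and AT3G27320 at 0.028 ± 0.14. The relatives thus lay on both sides of 0, from -1.04 to 1.87.

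GID1A and GID1B both lie on chromosome 3, near opposite ends. The nearest measured genes in gene order, 3 on each side and within 8 genes, were read beside them. None of the 6 around GID1A was called by limma, beside 2.37% of all probe sets, and 2 had an unadjusted p below 0.05, beside 17.2% of all probe sets. These were AT3G05100 (-0.41 ± 0.14) and AT3G05130 (-0.53 ± 0.19, and -0.33 without no dex replicate 2). AT3G05130 is the next gene, and the neighbour on the other side, AT3G05110, stood at 0.24 ± 0.14. AT3G05110 was dim, and its no dex values (4.51 and 4.70) lay below the control levels of their arrays. AT3G05150 had the lowest value of the 6 at -1.06 ± 0.58, which came mostly from dex replicate 2 (7.05, against 8.87 in dex replicate 1 and 9.06 and 8.97 in the no dex arrays) and was -0.15 without it and -1.96 without dex replicate 1. AT3G05080 and AT3G05170 stood at -0.14 and 0.28, and AT3G05080 lay below the control level in no dex replicate 2 and dex replicate 1.

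Around GID1B, 1 of 6 neighbours was called, AT3G62950, which lies 8 genes away and was lower with dexamethasone, opposite to GID1B, beside 0.879% of all probe sets called as lower. It was dim, with 5.08 and 4.69 in the no dex arrays and 3.42 and 3.54 in the dex arrays, and only no dex replicate 1 exceeded the control level of its array. Its difference was -1.40 ± 0.17 (limma adjusted p = 0.037). With only the dex arrays set to the control level it was 1.09-fold lower, a value that was not tested and that takes in the dim no dex replicate 2. Its call was lost without dex replicate 1 and without dex replicate 2 (limma adjusted p = 0.258 and 0.221). The next measured gene after GID1B, AT3G63020, stood at -0.055, and AT3G63040, AT3G63050, AT3G62960 and AT3G62970 at -0.11, 0.20, 0.26 and -0.085. Of the 6, 3 did not exceed the control level in any array.

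**Figure D4:**
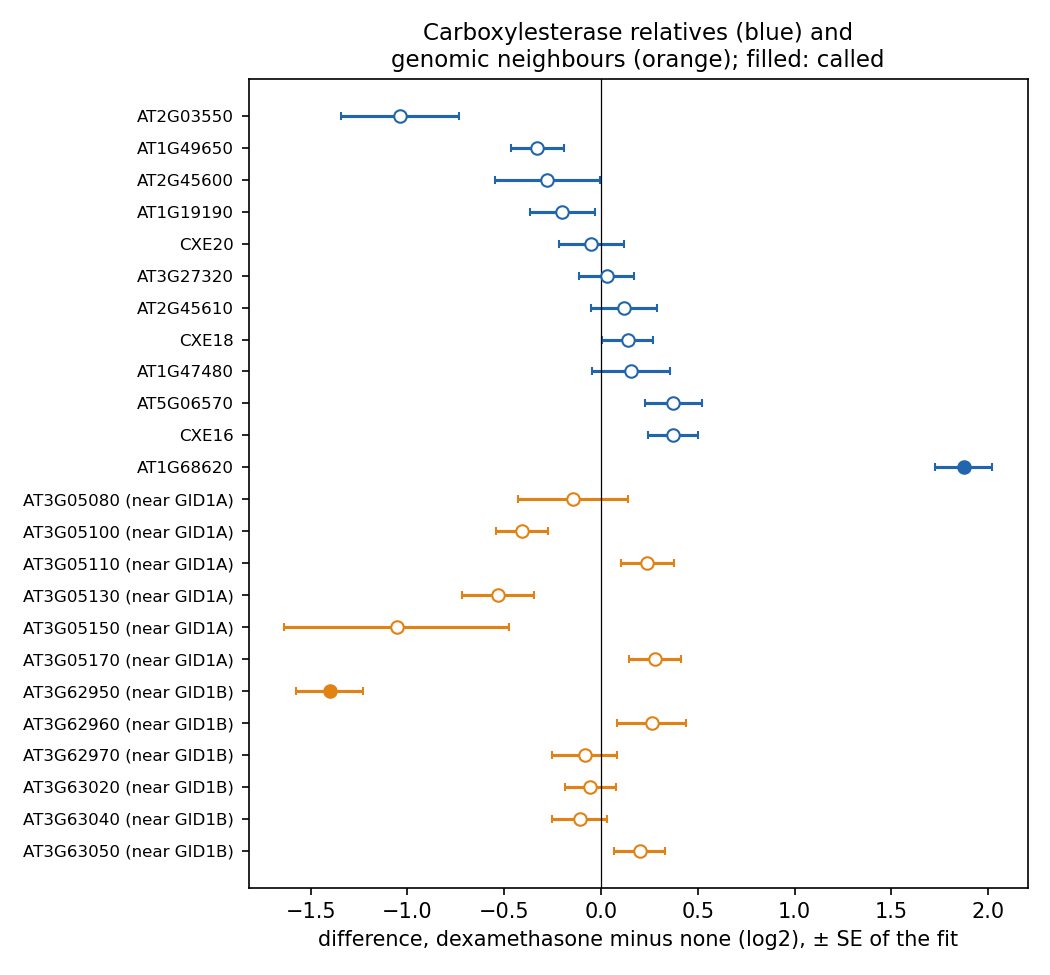
Differences between dex and no dex arrays (x axis, log2, points with the SE of the fit) for the 12 measured carboxylesterase relatives and for the measured genes next to GID1A and GID1B (y axis), with filled points for calls. Only AT1G68620 (1.87) and AT3G62950 (-1.40, from dim values) are filled among these.

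The genes most like each receptor over the 4 arrays were found by the root mean square distance between log2 values centred on each gene's own mean, over 13355 other genes. This likeness rests on 4 arrays and mostly on the difference that chose the pair, so it is a description. Nearest to GID1A was AT4G26600, at a distance of 0.066, which read 7.07 and 6.76 without and 5.66 and 5.37 with dexamethasone. Like GID1A it was higher in replicate 1 of both groups, as were the other genes nearest to GID1A. A choice by distance over all arrays favours such likeness. The dex replicates lay close together, however, for AT4G36970 (7.17 and 7.14), AT5G18630 (6.51 and 6.49) and AT1G26800 (5.36 and 5.33). AT4G35750 (0.097), AT4G36970 (0.10), AT5G18630 (0.11) and AT1G26800 (0.12) came next, with differences from -1.67 to -1.43.

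Nearest to GID1B was AT2G24330, at a distance of 0.037, which read 8.34 and 8.00 without and 9.55 and 9.32 with dexamethasone. AT5G19250 (0.047), AT1G63750 (0.049) and AT5G65470 (0.049) followed, with differences of 1.16, 1.21 and 1.21. The fifth was SAG101 (0.066), a lipase-like gene of immune signalling, which read 7.84 and 7.46 without and 9.03 and 8.61 with dexamethasone. All 5 lay closer to GID1B than the second nearest gene lay to GID1A.

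**Figure D5:**
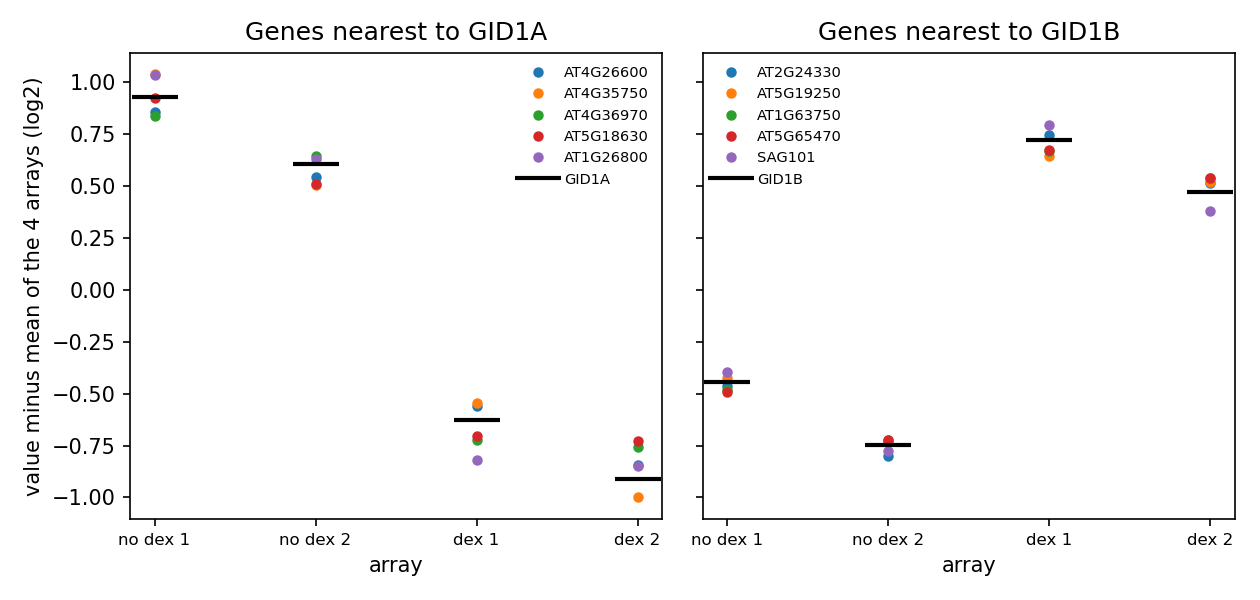
Log2 values minus each gene's mean over the 4 arrays (y axis) by array (x axis) for GID1A and GID1B (black bars) and the 5 genes nearest to each (points). The distances from the receptor are 0.066 to 0.12 for GID1A and 0.037 to 0.066 for GID1B.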

How the data were processed

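The deposited values are on the log2 scale, 1 for each probe set in each array, and the authors made them with RMA and the affy package, per the submitters' processing notes. Their versions and filters are not stated there. RMA brings the arrays to one distribution, which hides a shift common to all transcripts. The 64 control probe sets were left out. Of 22746 tested, the annotation gave 1 gene for 13513 and several for 503, and 8730 stayed unnamed. Where a gene had several probe sets, the one with the highest mean stood for it. Symbols came from the RefSeq gene table.

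Groups and replicate numbers came from the sample titles, and the design text calls the replicates biological. Differences are dex minus no dex from a two-sided limma test (lmFit, eBayes, no block; limma 3.58.1, R 4.3.3), adjusted over all tested probe sets. The fit was tested on simulated data. Named genes were both receptors, every measured member of the signalling, metabolism and DELLA target lists, the called members and the 4 with the highest mean of the other lists, 3 neighbours on each side and the 5 nearest patterns. Members, lists and the control level were chosen with earlier results of these data known. Arrays carry no read depth, and their number limits the precision. No sequence is printed, because none was among the sources used here.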

Additional observations from a re-analysis of the deposited data

How the results depend on the processing

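All settings were planned. In the 7 that keep all arrays, GID1A ranged from -1.54 to -1.52 and GID1B from 1.19 to 1.21. These settings reuse the arrays from which the pair was chosen, so nothing is read from its calls in them. With the replicate number as a block, 559 probe sets were higher and 300 lower, against 339 and 200, and the errors of GID1A and GID1B were both 0.13. The block changed no call among the 43 other genes recomputed, which leave out the nearest patterns and the markers. Deviations of same-numbered arrays from their group means correlated at 0.227, and with 2 pairs the numbers were not used for pairing. Testing only the 13513 probe sets that match 1 gene gave 172 and 101, and 260 of these calls were also made over all tested probe sets. With 1 array omitted, the higher probe sets numbered 0 to 734 and the lower ones 0 to 458 (2672 and 2448 at an unadjusted p below 0.05 in limma without dex replicate 1 and 2, where 0 were called), 0 to 2 pathway genes and 0 to 2 carboxylesterase relatives. The single array left in a group was taken to vary as the other pair did, and the cause of the changes was not tested. Of these 43 genes, 15 changed direction, each only when 1 array was left out, and none of the 15 was called with all arrays. Their ranges were -0.10 to 0.41 for AT1G47480, -0.74 to 0.12 for AT2G14900, -0.034 to 0.081 for AT2G30810, -0.22 to 0.23 for AT2G31730, -0.61 to 0.053 for AT2G45600, -0.052 to 0.29 for AT2G45610, -0.56 to 0.27 for AT3G05080 and -0.064 to 0.12 for AT3G27320. They were -0.26 to 0.089 for AT3G62970, -0.14 to 0.030 for AT3G63020, -0.23 to 0.0095 for AT3G63040, -0.083 to 0.90 for AT5G50915, -0.19 to 0.089 for CXE20, -0.14 to 0.093 for SLY1 and -0.32 to 0.11 for SPY. Signal near background limits the dim genes, since detection calls were not used here.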
